A study of Mus musculus with 4 samples.

Results

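Among the gene loci already annotated by UCSC, 1125 held 3 or more assembled transcripts of Cufflinks class j, the code for a transcript that shares splicing with an annotated model but departs from it in its chain of junctions. They were 5.58% of the 20167 loci whose longest UCSC model by exon number had 2 to 39 exons, and are called member loci below. The other 19042 loci of that exon range held 1 or 2 class j transcripts in 3178 cases and none in 15864 cases. Member loci held 4804 of the 9388 class j transcripts of all 35299 loci, which was 51.2%.

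Poly(A)-selected RNA of the heart was sequenced as paired reads of 100 bases from C57BL/6J mice, 12 weeks old and sham-operated 2 weeks earlier, in 4 biological replicates that form the only group. Tissue came from the site matching the border zone of an infarct, and the free text for replicate 4 lacks the word sham, which its other labels carry. The labels do not tie the libraries 3RL, 7LR, 8R, 12RL to replicate numbers, so which of them is replicate 4 is not known. They held 108345923 to 160670654 reads, and the 4 normalised read counts of a locus, which are reads divided by a size factor of the library, are given below in that order of libraries.

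Most mammalian genes with introns make several mature RNAs, because exons can be skipped, introns kept, splice sites shifted, and transcription begun or ended at other exons. In heart muscle, alternative splicing is known to tune sarcomere, calcium-handling and cytoskeletal proteins. An assembler joins short reads into whole transcripts, so a class j transcript is a model of an RNA, not a directly read molecule. None of the 5362 UCSC identifiers of the member loci matched the available identifier tables (0 matches), and the models list no symbols. Loci are therefore named by their mm9 position, and neither gene roles nor markers of heart muscle or other cell types could be looked up.

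Class j transcripts of the member loci were most often built on a junction that the UCSC models of the same locus lack, or on known junctions in a new order. Of the 4804 transcripts, 2325 (48.4%) had such a new junction. Another 1795 (37.4%) used known junctions only, in a combination that no UCSC model holds. A further 372 (7.74%) had no new junction and an exon spanning an intron of some UCSC model of the locus, here called a kept intron. Whether another UCSC model already holds such an exon was not checked, and some of these may also be new combinations. The remaining 312 (6.49%) had only junctions of a single UCSC model, all or some of them, with other ends. The make-up was similar in the other loci, at 44.3%, 38.0%, 7.64% and 10.1% of 4199 class j transcripts for the same 4 kinds. Loci counted as having several new splice isoforms by class code did not all have new junctions. In 497 member loci (44.2%) no class j transcript had a new junction, in 416 (37.0%) every one did, and in 212 (18.8%) some did.

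The 3 kinds of member loci differed in their annotation. Loci without any new junction had the highest median number of exons, 16, and a median of 5 UCSC models. Loci in which every class j transcript had a new junction had medians of 8 exons and 3 UCSC models. Cassette exons, which are internal UCSC exons lying whole within an intron of another UCSC model, were present in 77.9% of the first kind and 33.9% of the second. Loci in which some class j transcripts had a new junction had medians of 13.5 exons and 5 UCSC models, and 61.3% had a cassette exon. A new combination of known junctions needs more than 1 UCSC model. The sorting into kinds thus bears by itself on model number and cassette exons, and these gaps are descriptions only. Over all member loci the share with a cassette exon was 58.5%, against 16.9% of the other loci. Among these it was 33.6% of the loci with 1 or 2 class j transcripts and 13.5% of those with none. Within the class of 10 to 19 exons the share was 65.3% of members against 26.0% of all other loci. A gap was thus also present between loci of like exon number. By this definition a locus with 1 UCSC model cannot have a cassette exon. Such loci were 101 of the 1125 members and 9757 of the 19042 others. Loci of like model number were not compared, so the gap cannot be told apart from that difference. These shares describe 1 pooled set of models and have no replicate.

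New exons were common at the ends and inside the member loci. A first exon that overlaps no UCSC exon was present in 1008 class j transcripts (21.0%), such a last exon in 896 (18.7%) and such an internal exon in 983 (20.5%). In the other loci the corresponding shares were 19.6%, 15.8% and 7.81% of 4199 class j transcripts. New internal exons were thus the feature with the widest gap of these 3. Transcripts with 2 or more new junctions made up 23.6% in member loci and 9.36% in the other loci. Class j transcripts of member loci were longer than their nearest UCSC model in 76.6% of cases, by a median of 1617.5 bases over all of them, with a median difference of 0 exons. In the other loci 75.3% were longer, a share near that of the members, and the median was 1091 bases.

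The new junctions of member loci were mostly built from splice sites that no UCSC model of the locus uses. There were 3076 distinct ones, and for 2378 of them (77.3%, 95% Wilson interval 75.8 to 78.8) neither site was known. In 614 1 site was known, in 74 (2.41%) both sites were known and 1 or more exons were skipped, and in 10 both were known with no exon skipped. Of the 2627 new junctions in the other loci, 61.7% had no known site (95% Wilson interval 59.8 to 63.5). Intervals here cover counting error only, and junctions of 1 locus are not independent. By place, 1215 new junctions of member loci (39.5%) reached upstream of the outermost UCSC model, 963 (31.3%) lay within, and 898 (29.2%) reached downstream. In the other loci the shares were near these, at 41.5%, 29.4% and 29.1%. The shortest new intron had 51 bases and the median was 2557.5 bases.

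**Figure D1:**
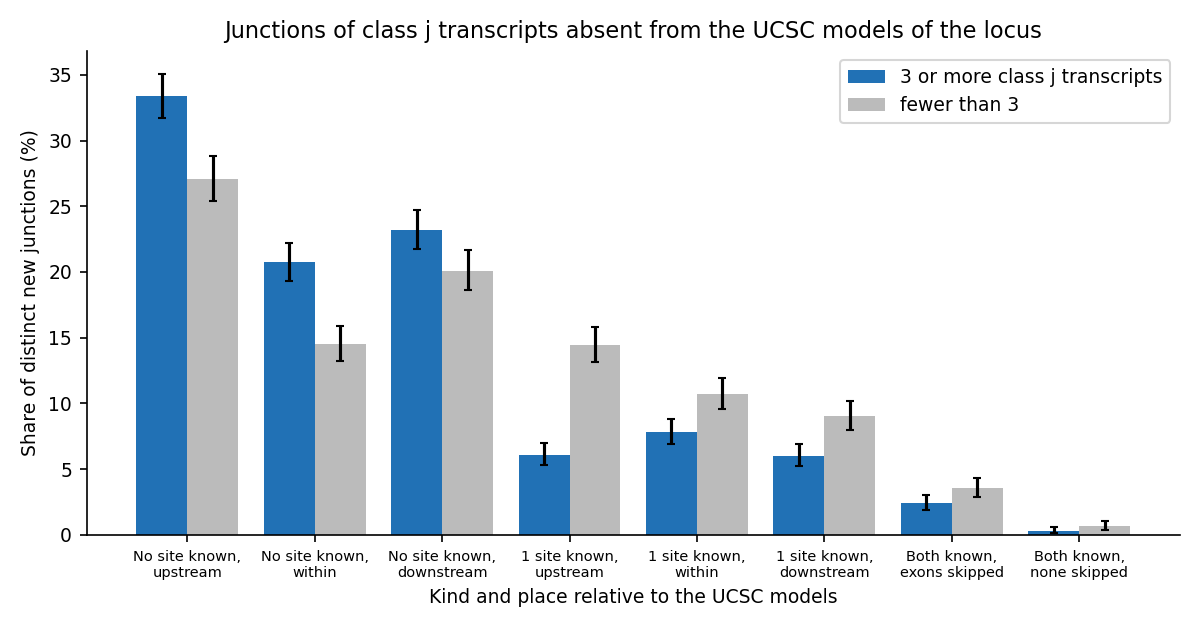
The bars give the share of distinct new junctions, in percent, by the number of known splice sites and by place relative to the UCSC models, for loci with 3 or more class j transcripts and for loci with fewer. Error bars are 95% Wilson intervals over junctions, and junctions without a known site make up 77.3% of the first set and 61.7% of the second.

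New junctions were concentrated in few loci. The 63 member loci with 10 or more of them (5.60%) held 1255 of the 3076 (40.8%). A new junction was shared by 2 or more class j transcripts of its locus in 1787 cases (58.1%), and by every one of them in 724 cases (23.5%).

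The locus at chr11:58804908-58952809 on the minus strand had the most, 101 new junctions in 13 class j transcripts. It holds 2 UCSC models of up to 23 exons that do not overlap each other, and every class j transcript began in a new first exon. It was also among the loci with high counts, with normalised read counts of 204958, 297357, 201887 and 344347. The 7LR and 12RL values lay above those of 3RL and 8R.

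The locus at chr15:71628907-71864673 followed with 64 new junctions in 3 class j transcripts, around a single UCSC model of 2 exons. Its counts were low in every library, at 82.4, 117, 107 and 94.6. At chr11:119247973-119323302 there were 46 new junctions in 6 transcripts, around a single UCSC model of 4 exons and 575 bases. The chr11:119247973-119323302 locus was at 4004, 6832, 2653 and 6146, again with 7LR and 12RL above the other 2 libraries. The next were chr9:110523639-110559100 with 45, chr1:46123445-46291196 with 40 and chr4:118035348-118081892 with 37. In these 6 loci every class j transcript had a new junction, a new first exon and a new internal exon.

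A single UCSC model surrounded by many assembled ones marked another kind of member locus. Only 101 of the 1125 member loci had 1 UCSC model, against 9757 of the 19042 other loci. The most class j transcripts among them, 11, were at chr1:92100033-92196269, where the model has 2 exons and all 11 transcripts ended in a new last exon. Its counts were 10671, 12493, 15886 and 10308, highest in 8R. At chr2:148249983-148387933 there were 8, all with a new first exon, and its counts were 22642, 17517, 16057 and 14144, highest in 3RL. The loci at chr1:109813816-109933958 and chr18:38761188-38997744 also had 8, all with a new last exon, and had mean counts of 2314 ± 342 and 45.8 ± 4.36 (SD, n = 4). Those at chr7:85965718-85992398 and chr1:72983050-73007478 had 7 each. In the former all 7 ended in a new last exon, and in the latter all 7 began in a new first exon.

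The largest numbers of class j transcripts came mostly from loci with several UCSC models, although chr11:58804908-58952809 held 13 with 2 UCSC models. Exactly 3 were present in 536 member loci, 4 in 256 and 5 or more in 333. The maximum of 20 was at chr5:8069177-8368081, a locus of 19 UCSC models and up to 30 exons. All 20 had no new junction and a kept intron as defined above, which may also be kept in a UCSC model of the locus. Its counts were 2490, 2469, 2307 and 2881, with a spread of 9.60% (CV) between libraries. At chr1:73953193-74170942 there were 16 transcripts, all with a new junction and 14 with a new internal exon. This locus was at 122930, 184990, 121206 and 196464, with the same pair of libraries on top as at the chr11 locus above.

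The loci at chr18:23468612-23818215 and chr17:15115832-15211957 each held 14 class j transcripts, and all were new combinations of known junctions. Their mean counts were 10609 ± 960 and 982 ± 46.2 (SD, n = 4). The latter had 25 cassette exons among its UCSC models. At chr1:175653556-175962143, 19 UCSC models in 5 separate clusters were joined in 1 locus with 13 class j transcripts, 12 of them with a new junction. Its mean count was 15705 ± 512 (SD, n = 4), and reads of the clusters cannot be told apart in it. Among all member loci 282 had more than 1 such cluster, and 74.9% had a single one, against 97.7% of the other loci. The share with a single cluster was 99.5% in loci with no class j transcript, 90.6% with 1, 83.5% with 2 and 80.2% with 3. Assembled transcripts can join clusters into 1 locus, so this share and the number of class j transcripts are not independent.

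Skipped exons made up a small share of the new junctions. Of the 74 junctions that joined known sites over exons, 37 skipped 1 exon and 18 skipped 2. The most, 13, were skipped at chr11:21471734-21798689, whose counts were 504, 484, 434 and 374. A junction at chr3:32635608-32847007 and another at chr2:155460044-155756160 skipped 9 exons each, and one skipped 7 at chr8:34887545-35171643. Each of these 3 loci joins 2 clusters of UCSC models, and their counts were of similar size in all libraries, with CVs of 4.29%, 4.95% and 7.36%.

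Examples of a single skipped exon came from the 34 member loci with such a junction, taken in order of mean count. The first was the exon of 266 bases at chr17:13227939-13228204, in a locus with counts of 83744, 80876, 93719 and 86653. The exon of 48 bases at chr10:33062882-33062929, on the plus strand, was skipped in 3 of the 9 class j transcripts of its locus, more than in any of the other 4 examples. That locus was at 46513, 50555, 53307 and 52306, a narrow range. Exons of 165 bases at chr18:5057273-5057437, 153 bases at chr8:73042264-73042416 and 154 bases at chr3:90315918-90316071 were each skipped in 1 transcript.

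A skipped exon whose length is divisible by 3 leaves the reading frame downstream in step, if it is coding and skipped alone. Of 166 exons skipped in member loci, 69 (41.6%, 95% Wilson interval 34.3 to 49.2) had such a length. Among all 17322 internal UCSC exons of the same loci the share was 40.5%. Exons skipped by the same junction are not independent, so the interval cannot decide whether these shares differ. Of the 38 exons under junctions that skip 1 exon, with overlapping exons counted separately, 18 (47.4%, 95% Wilson interval 32.5 to 62.7) had such a length. For exons skipped together the summed length matters, which was not computed. In the other loci 48.6% of 148 skipped exons had such a length. Which of these exons are coding is not given in the models.

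Splice sites shifted by a few bases were rare, and the commonest shift of an acceptor was 3 bases. Of 300 junctions with a new acceptor and a known donor, 18 had the new acceptor within 30 bases of a known one. In 8 of the 18 the distance was 3 bases, and in 4 it was 4 bases. Of 314 junctions with a new donor, 14 were within 30 bases of a known one, 4 of them at 4 bases. Acceptors that lie 3 bases apart are a known class of tandem site, at which the spliceosome can use either copy. Most new sites were far from a known one: 80.7% of the new acceptors and 51.3% of the new donors were over 1000 bases away.

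**Figure D2:**
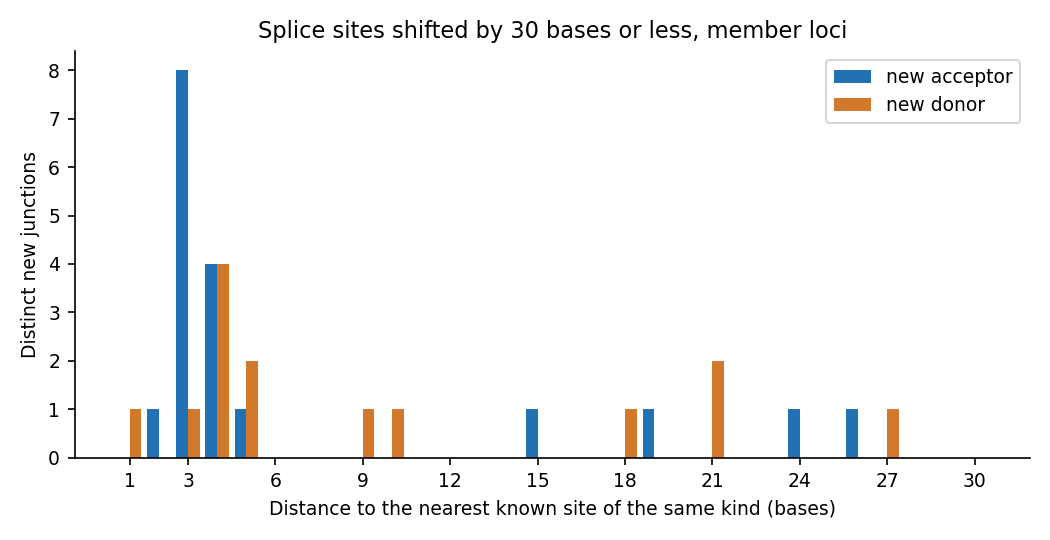
The bars count distinct new junctions of member loci whose new acceptor or new donor lies 30 bases or less from a known site of the same kind, by distance in bases. Acceptors have 8 junctions at 3 bases and 4 at 4 bases, and donors have 4 at 4 bases.

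The 3-base shift in the locus with the highest count was at chr18:4920565-5119288, where the new intron at chr18:5049493-5054012 was present in 2 of 5 class j transcripts. That locus was at 54255, 69414, 53788 and 65514. The next were in introns at chr15:102319246-102320185, chr4:154457424-154460313 and chr1:87597725-87597982, each in 1 transcript. The mean counts of their loci were 22144 ± 1800, 9105 ± 742 and 4668 ± 518 (SD, n = 4).

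Member loci were longer and richer in exons and models than the other loci. Their median number of exons was 13 against 7, their median longest spliced UCSC model 3555 against 2321.5 bases, their median span of UCSC models 48.4 against 18.5 kb, and their median number of UCSC models 4 against 1. At the threshold, loci with 3 class j transcripts had a median of 12 exons and a median mean count of 4575, and loci with 2 had 12 exons and 3441. By chromosome, members were between 3.27% (X) and 6.85% (17) of the loci of the exon range, leaving out Y and unplaced sequence.

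The share of loci that were members was greater with more exons and with more reads in most classes, though at 2 to 4 exons it was 4.13% from 100 to 1000 counts and 3.98% from 1000 to 10000. Loci of 5 to 9 exons also had smaller shares than those of 2 to 4 exons from 100 to 1000 counts (3.72%) and from 10000 counts (9.76% against 12.1%). It was 0.0332% (1 of 3014) for loci of 2 to 4 exons with a mean normalised read count below 10, and 27.6% (113 of 410) for loci of 20 to 39 exons with a mean of 10000 or more. Among loci of 10 to 19 exons it went from 0.504% below 10 to 15.6% at 10000 or more. Class j models come from assembled reads, and the sources used here do not say from which libraries, so the number of class j transcripts and the count of a locus cannot be taken as independent measures.

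**Figure D3:**
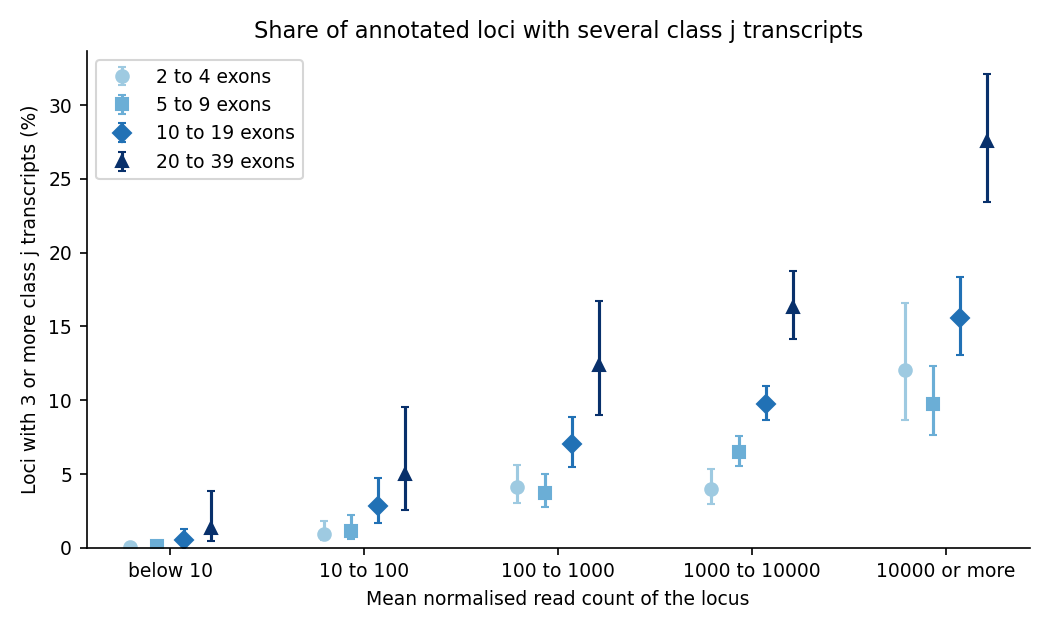
The points give the percentage of annotated loci with 3 or more class j transcripts, by mean normalised read count (horizontal axis, 5 classes) and by exons of the longest UCSC model, with 95% Wilson intervals over loci. The share is 0.0332% at 2 to 4 exons below 10 counts and 27.6% at 20 to 39 exons from 10000 counts.

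In each library the median member locus was above the median of the other loci. The medians of log2(value + 1) in member loci were 12.09, 12.13, 12.09 and 12.13 in library order, among 1124 with a mean above 0. In the other 16345 loci above 0 they were 9.71, 9.64, 9.68 and 9.61 in the same order. The difference was 2.45 ± 0.06 on the log2 scale (SD, n = 4) and positive in 4 of 4 libraries (p = 0.13, exact two-sided sign-flip permutation test, the smallest p that 4 libraries allow). Such a p cannot pass 0.05. Class j models come from assembled reads, so a higher count may be built into the choice of member loci. The test therefore gives no separate support for the difference. The size depended on the minimum count, at 1.40 when a mean of at least 10 was required and 3.73 with no minimum. Within classes of exon number the difference was 4.75 at 2 to 4 exons, 1.99 at 5 to 9, 1.19 at 10 to 19 and 1.19 at 20 to 39. Against the other loci with 1 or 2 class j transcripts it was 0.50 ± 0.04 (p = 0.13, same exact test).

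The share of all normalised counts that fell in member loci was 10.4% ± 0.204 (SD, n = 4), lowest in 8R at 10.2% and highest in 7LR at 10.6%. Of the member loci, 588 (52.3%) overlapped a locus on the opposite strand, against 30.1% of the other loci. Member loci also had a longer median span of UCSC models, 48.4 against 18.5 kb, and loci of like span were not compared. The sources used here do not say whether reads were counted by strand, so counts of loci with such an overlap may include reads of the partner. In bulk tissue, fewer cells of a type and less RNA per cell cannot be told apart.

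At the 3 member loci with the highest counts, measured per locus and not per length, 8R was the highest library and 7LR the lowest. At chr15:76829978-76881098, with a longest model of 1056 bases, the counts were 1375757, 1209695, 1541238 and 1293115. All 9 of its class j transcripts had a new junction and a new last exon. At chr1:137715175-137755463 they were 1119996, 1085704, 1357998 and 1232615, for 5 class j transcripts.

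At chr5:122543066-122563256, a locus with 1 UCSC model of 633 bases, they were 962660, 903645, 1130915 and 923710. This locus had the shortest longest model of the 6 named for their counts. Per kb of the longest spliced model the order changed, with 1548551 at the chr5 locus, 1283098 at the chr15 locus and 400761 at the chr1 locus. The next were chr10:127520330-127566619 with a mean count of 784396 ± 51306, chr7:4456265-4484044 with 528341 ± 53441 and chr17:71366213-71477239 with 283384 ± 17391 (SD, n = 4). The loci at chr1:137715175-137755463 and on chr10 join 2 clusters of UCSC models each and the chr7 locus 3, so their counts belong to more than 1 cluster.

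**Figure D4:**
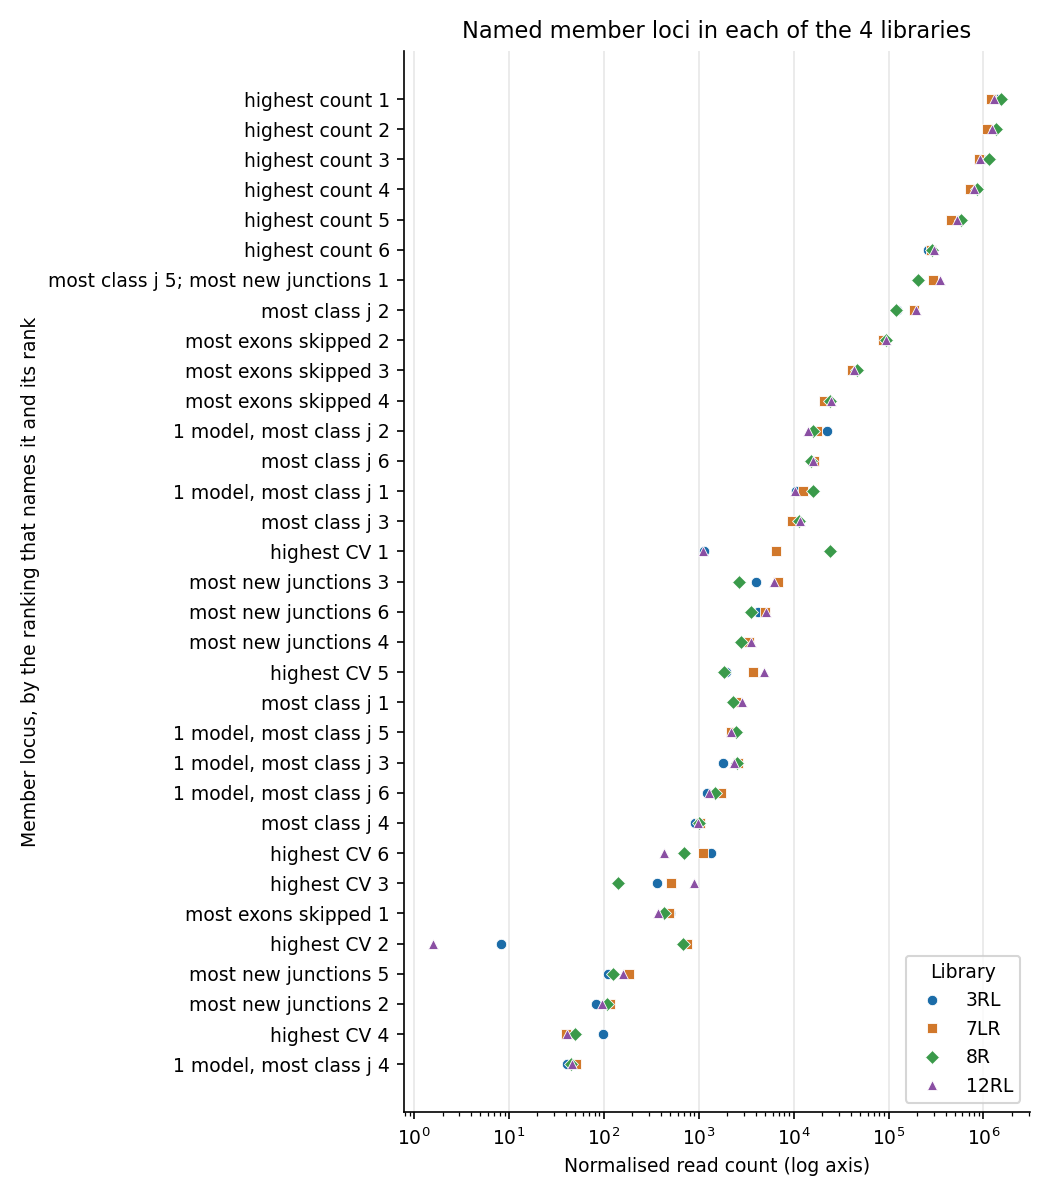
Each row is a named member locus, labelled by the ranking that names it and its rank in it, and each point is the normalised read count of 1 library on a log axis. The first row by CV spans 1116 to 24356 and the second 1.58 to 752.

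Counts of most member loci differed little between the 4 libraries. The CV had a median of 9.04% over the 1097 members with a mean of at least 50 and of 10.01% over 11540 other loci, and 622 (56.7%) had a CV of 10% or less, against 5766 (49.97%) of the other loci. Compared within classes of mean level, the median SD of log2(value + 1) had a ratio to that of the other loci of -0.02 on the log2 scale. Without 8R this was 0.07 and after scaling to equal table totals 0.15, so no direction can be given for the difference in spread.

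Among the 1097 member loci with a mean of 50 or more, 3 (0.273%) had a CV above 50%, against 93 (0.806%) of the other loci. The highest of them, 133%, was at chr15:101084668-101105223, with counts of 1135, 6521, 24356 and 1116. There 8R and 7LR were far above the other libraries, and without 8R the mean fell from 8282 to 2924. All 4 class j transcripts of this locus had a new first exon and a new internal exon around a single UCSC model of 7 exons.

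At chr14:26707889-27002074 the counts were 8.36, 752, 690 and 1.58, a CV of 114%. The libraries fell into 2 pairs with no value between. The locus spans 294 kb and holds 3 separate clusters of short UCSC models, with a longest model of 451 bases. Without 7LR or without 12RL its mean moved from 363 to 233 or to 483. The remaining one was chr14:61757294-61859530, at 366, 510, 140 and 894, lowest in 8R.

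The next by CV were chr5:138667126-138695571 (48.9%), chr16:42875993-43727347 (47.9%) and chr7:142877890-142908042 (46.0%). The first of these had its highest count, 99.1, in 3RL, with the other libraries between 39.9 and 50.02. The second was at 1956, 3715, 1829 and 4927. The last was at 1363, 1113, 705 and 432.

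Single extreme libraries were called with Dixon's ratio, the gap of the extreme value to its neighbour over the range, against its 95% critical value for 4 values. A high library was called at 29 of the 1097 member loci (2.64%), and the share over all loci tested was 3.15%. A low library was called at 16 (1.46%), and the share over all loci tested was 1.45%. Both shares of member loci were thus near those of all loci. Library 8R was the high one at 16 of the 29, 3RL at 6, 7LR at 5 and 12RL at 2. It was also the high one at 185 of the 374 calls in the other loci. After scaling to equal table totals a high library was called at 20 member loci (1.82%, against 2.63% of the other loci), 5 of them in 8R. Under that scaling a low library was called at 21 member loci (1.91%, against 1.85% of the other loci). The low library was 8R at 17 of these 21, against 6 of 16 as deposited. In the other loci it was 8R at 96 of 213 low calls, against 44 of 160 as deposited.

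Of the loci so called, the widest in CV was chr5:105588508-105722979, at 4160, 4105, 6126 and 4077. The member locus at chr9:40608307-40614077 was at 207021, 204209, 293311 and 213665, also high in 8R. At chr4:129060005-129084705 3RL was low, at 408 against 672, 661 and 667 in 7LR, 8R and 12RL. These 3 were chosen after their values were seen.

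Library deviations of the member loci varied with the length of the locus. In members with a longest spliced model over 8 kb, the median deviation from the mean of the 4 libraries was -0.20 for 8R, -0.10 for 3RL, 0.15 for 7LR and 0.14 for 12RL on the log2 scale over 36 loci. In the 135 members of 1 to 2 kb it was 0.11 for 8R, 0.02 for 3RL and -0.06 for both 7LR and 12RL. The other loci of those lengths had the same order of 8R against 7LR and 12RL. Its part in the library differences of single loci, such as those on chr11 and chr1 above, was not tested.

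**Figure D5:**
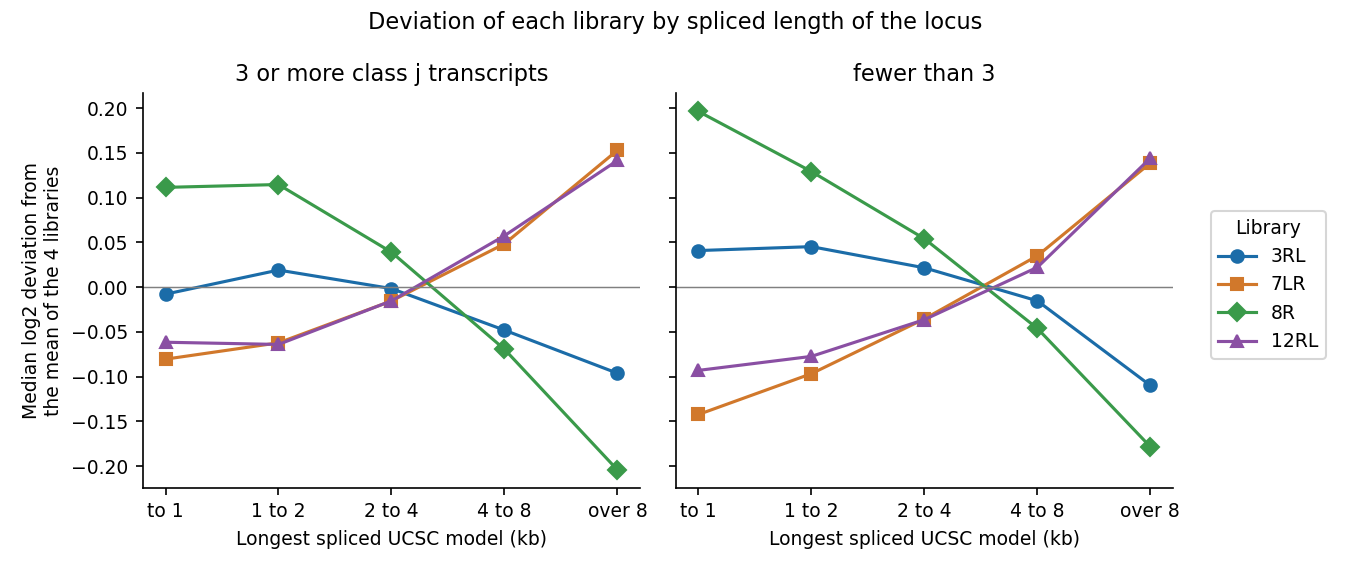
Lines give, for each library, the median log2 deviation of loci from the mean of the 4 libraries, by longest spliced UCSC model in kb, for loci with 3 or more class j transcripts (left) and fewer (right). Over 8 kb, members are at -0.20 in 8R and 0.15 in 7LR.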

How the data were processed

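The authors deposited a table of signal values per locus, which are read counts divided by 1 size factor per library, and 1 set of transcript models with mm9 exon positions for all libraries together. HTSeq 0.5.4p2, DESeq, Cufflinks 2.0.2 and TopHat2 2.0.5 are listed as tools, per the submitters' processing notes. The sources used here do not say which libraries entered the assembly. All 4 table columns were used, and 0 columns were left out. Whole reads were recovered for 100% of values within 0.001, giving 108345923 to 160670654 reads per library. With 1 group, no count test between groups was possible. The recovered reads entered edgeR 4.0.16 (R 4.3.3) for dispersions only, as an alternative measure of spread.

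Junctions of each class j transcript were compared with all UCSC models of its locus. Levels used log2(value + 1), which understates differences of low loci, for loci with a mean above 0. Spread used a mean of 10 or more within 8 classes of level, and CV and Dixon's ratio a mean of 50 or more on untransformed values. The sign-flip test takes only these 4 libraries as replicates, not the loci. When all 4 differences have the same sign, its p is the smallest possible, whatever their size or spread. Named loci were the 6 with the most class j transcripts, the highest mean, the highest CV, the most junctions in no UCSC model, or 1 UCSC model and the most class j transcripts, and the 4 with the most exons skipped. Cassette exons, sharing of junctions and the single examples were added after the files were seen. Members and lists were chosen with earlier results of these data known. The lists of gene symbols and cell type markers were not used, since no identifier could be paired with a symbol. No genome of mm9 was used here, so no sequence is given. The steps used Python 3.11.15, numpy 2.4.6, pandas 2.3.3, scipy 1.17.1 and matplotlib 3.10.9, and were tested on simulated data.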

Additional observations from a re-analysis of the deposited data

How the results depend on the processing

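The level difference kept its sign under every alternative run. It was 1.40 with a minimum mean of 10, 3.73 with no minimum and 1.98 per kb. Within classes of exon number it was 1.76, and in loci of a single cluster 2.29. When each library was left out it was between 2.34 and 2.39, below the 2.45 of the main setting. There the mean above 0 was required anew, which left 16098 to 16172 other loci in place of 16345. That range thus mixes a changed set of loci with the part of each library. All runs share the dependence on assembled reads, so the kept sign adds no separate support. The ratio of spreads, -0.019 on the log2 scale, changed sign with edgeR's tagwise dispersion (0.028), with equal table totals (0.153) and without 8R (0.068), and ran from -0.064 to 0.068 when each library was left out. The cause was not tested. In loci of 2 to 4 kb spliced length, an alternative chosen after seeing the data, it was -0.022. The number of member loci was 2146 with 2 or more class j transcripts, 333 with 5 or more, 498 when only transcripts with a new junction counted and 843 for loci of a single cluster. Counting each new junction once per transcript gave 1.16% for skipped exons, 0.173% for new pairs of known sites, 12.9% for 1 known site and 85.7% for none. In the other loci the shares of distinct new junctions were 3.54%, 0.647%, 34.1% and 61.7%. Those count each junction once per locus, so they compare with the shares of distinct junctions of member loci, not with these per-transcript shares. A minimum intron of 50 bases removed 0 new junctions, so it could not move the shares. Known sites from all UCSC models gave the same values, with 0 new junctions held by a model of another locus. A model that shares a splice site also shares exon bases, so it would normally be in the same locus. Neither check therefore adds support for the shares. Scaling to equal totals, for named loci also chosen after seeing the data, moved no mean of a named locus by more than its SD. Leaving out each library moved the mean at chr15:101084668-101105223 from 8282 to between 2924 and 10671, and at chr14:26707889-27002074 from 363 to between 233 and 483. Pooled models have no libraries to leave out, and Dixon's ratio was not computed with 3 libraries. No paired analysis was possible because the study has only 1 group. The limits are the pooled assembly, the unknown counting mode, the 4 libraries and the missing gene names.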
